A study of Lobaria pulmonaria with 11 samples.

Results

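The transcripts described here are those of the lichen fungus Lobaria pulmonaria that were well counted in 1 library and all but missing in another library of the same day. They were chosen by raw counts. On at least 2 of the 4 sampling days, 1 library of the day had at most 3 counts and another library of that day had at least 50. The rule found 123 of the 15607 transcripts in the mycobiont table (0.788%). Below, a transcript is called on in a library with at least 50 counts and off in a library with at most 3. The counts chose the members, so their spread within a day is a description and carries no test.

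A lichen thallus is a joint body in which a fungus, the mycobiont, houses photosynthetic partners. In the tree lungwort these are a green alga, the photobiont, and a cyanobacterium. Lobaria pulmonaria spreads by fungal spores and by small propagules that carry the partners together, so thalli from a woodland can belong to different fungal individuals or to copies of 1 individual. A low count of a transcript does not tell a silent gene from a gene that is missing or whose sequence differs too much for reads to be assigned to it. These were not told apart here.

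The study irradiated thalli with UV-B fluorescent lamps, at 3 W/m2 for 80 min per day in a course planned for 14 days, a daily dose of 14.4 kJ/m2. All thalli came from aspen trunks in a wild stand, were dried, kept frozen, rehydrated and held wet in a chamber at 15 °C, and those of day 0 had received no UV-B. Day 0 has 3 libraries, day 2 has 3 (28.8 kJ/m2), day 7 has 2 (100.8 kJ/m2) and day 11 has 3 (158.4 kJ/m2), each of polyadenylated RNA from thallus. The labels number the libraries of a day as replicates. They give no genotype of the fungus and do not say whether a library comes from 1 thallus or from several, or whether libraries of different days share a thallus. P-values therefore measure the spread between these libraries only. Dose and time in the chamber cannot be told apart, since the only unirradiated thalli are those of day 0.

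The mycobiont table holds 8680745 to 17626099 counts per library. Levels are also given as CPM, the count scaled to a common library total. At these depths a count of 0 allows up to 3 counts, or 0.170 to 0.346 CPM, which covers counting error only. The files pair the numeric transcript IDs with no gene name, function or position, so members are described by ID. Day 2 replicate 2 and day 7 replicate 2 shared nearly all statuses, and day 11 replicate 1 had more members on and fewer off than any other library. The main counts that rest on these libraries are therefore given with and without them.

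Of the 1353 values of the 123 members in 11 libraries, 569 (42.1%) were on, 632 (46.7%) were off and 152 (11.2%) lay between 4 and 49 counts. There were 315 counts of 0 (23.3%). Values that were on had a median of 219 counts and reached 8917 counts, or 3.29 to 702 CPM with a median of 18.5 CPM. The highest count of a member had a median of 414 over the members. A member was on in 2 to 9 libraries, with a median of 4. In 55 members every library was either on or off.

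The criterion was met on 2 days by 83 members, on 3 days by 34 and on all 4 days by 6, while another 224 transcripts met it on a single day and are not members. Among the members it was met by 66 on day 0, 95 on day 2, 46 on day 7, which has only 2 libraries, and 85 on day 11. Without day 11 replicate 1, 66 of them met it on day 11, and without day 2 replicate 2, 48 met it on day 2. Just inside the rule, 14 members reached 50 to 59 counts on their second best day, the lowest of them 52. Just outside it, 14 transcripts reached 40 to 49 counts on that day, the highest of them 49. In 50 members the lowest count on the deciding day was 0, and in 34 it was 2 or 3. Another 21 transcripts stayed outside with a lowest count of 4 or 5.

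Day 11 replicate 1 had 82 members on and 17 off. In the other 10 libraries 37 to 65 members were on and 45 to 75 were off. Depth differs between libraries, so counts were also scaled to the smallest library total. On that scale day 11 replicate 1 still had 70 members on and 18 off, against 33 to 54 on and 53 to 77 off elsewhere. The members made up 0.433% of its mycobiont counts, against 0.0806% to 0.314% in the other libraries. Its other 24 members lay between the limits, where the remaining libraries had 10 to 17.

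**Figure D1:**
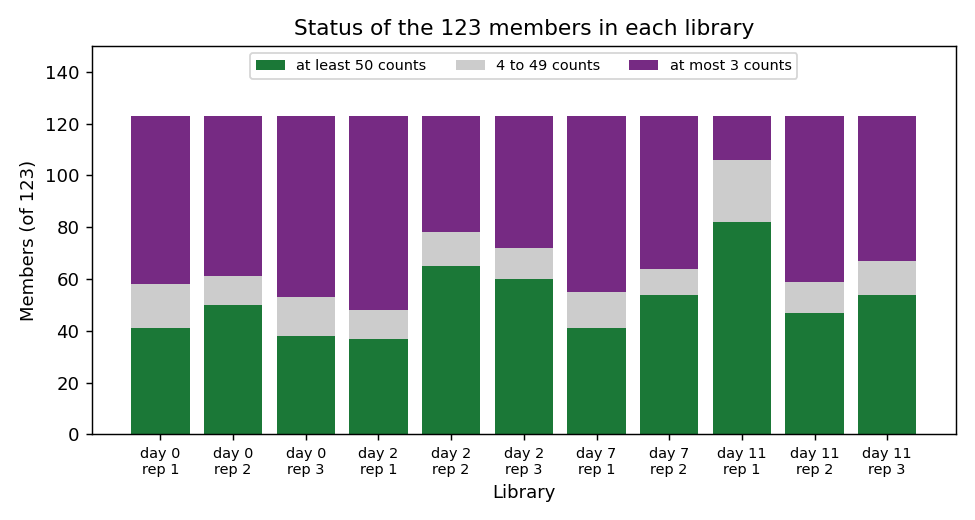
Number of the 123 members (y axis) with at least 50 counts (green), 4 to 49 counts (grey) or at most 3 counts (purple) in each of the 11 libraries (x axis). Day 11 replicate 1 has 82 members on and 17 off, and no other library has more than 65 on or fewer than 45 off.

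Among the 6 members that met the criterion on all 4 days, the 3 with the highest single counts show the pattern in full. Transcript 1286141 had 11, 6368 and 1 counts in day 0 replicates 1, 2 and 3, then 0, 2941 and 0 at day 2, 1 and 635 at day 7, and 786, 860 and 3 at day 11. Transcript 1082970 had 6, 5054 and 1 counts at day 0, 3, 2776 and 2 at day 2, 0 and 880 at day 7, and 906, 1015 and 1 at day 11. Both were on in replicate 2 of every day and in day 11 replicate 1, and at 11 counts or fewer in all others. Transcript 685553 had 1, 604 and 1 counts at day 0, 0, 623 and 0 at day 2, 0 and 290 at day 7, and 0, 178 and 0 at day 11. It differed from the previous pair in day 11 replicate 1, where it had no count. Meeting the criterion on all 4 days itself requires a high and a low library on each day.

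Members were sorted into profile groups by the correlation of log2(CPM + 1) over the 11 libraries (average linkage, height 0.2). This gave 59 groups, of which 25 held 2 or more members (89 members in all), and 34 members stood alone. The 6 groups of at least 5 members held 39. Without day 11 replicate 1 the same members formed 56 groups, 27 of 2 or more with 94 members. Without the like pair of day 2 and day 7 they formed 57 groups, 27 of 2 or more with 91 members, and another 2 members had no count in any library kept. The groups were made from the values shown and carry no test.

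Group 1 held 13 members, all on in day 2 replicate 3 and in day 11 replicates 1 and 3, and at most 8 counts in each of the other 8 libraries. Its member with the highest mean level, transcript 1092622, had 2, 1 and 1 counts at day 0, 1, 5 and 3859 at day 2, 5 and 2 at day 7, and 2494, 0 and 2119 at day 11. Across the group the on values ran from 248 to 3859 counts in day 2 replicate 3, from 271 to 2494 in day 11 replicate 1 and from 259 to 2119 in day 11 replicate 3. None of its members was on in a day 0 or day 7 library, so the 3 libraries that carry them are all irradiated, but 5 other irradiated libraries did not carry them.

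Group 2 held 6 members, which were on in replicate 2 of days 2 and 7 and in day 11 replicate 3, with 5 of the 6 on in day 11 replicate 2 and 3 of the 6 in day 11 replicate 1. Transcript 1049342 led it with 0, 0 and 0 counts at day 0, 1, 2101 and 1 at day 2, 0 and 879 at day 7, and 212, 782 and 1236 at day 11. Its day 11 libraries were all on, and its day 0 libraries were all at 0. In day 11 replicate 1 the group ran from 16 to 212 counts, below the 59 to 1236 of day 11 replicate 3.

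Group 3 held 5 members that were on in day 7 replicate 1 and day 11 replicate 3, 3 of them also in day 0 replicate 3. Transcript 1075019 had 8, 7 and 3071 counts at day 0, 1, 6 and 4 at day 2, 3232 and 0 at day 7, and 577, 3 and 1901 at day 11. Group 4 held the members led by transcript 1286141, together with 685553, and all 5 were on in replicate 2 of every day. Day 11 replicate 1 split this group, with 3 members on and 2 off.

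Group 5 held 5 members with the reverse shape, on in most libraries and missing from 4. Transcript 1233860 had 471, 832 and 5 counts at day 0, 208, 439 and 2 at day 2, 419 and 193 at day 7, and 298, 1 and 3 at day 11. All 5 were at 5 counts or fewer in day 0 replicate 3, day 2 replicate 3 and day 11 replicates 2 and 3, and on in the other 7 libraries. The 5 members of group 6 were on in day 0 replicate 1, day 2 replicates 1 and 3 and day 11 replicate 1, and at 5 counts or fewer in the other 7 libraries. Transcript 1268572 had 1747, 1 and 1 counts at day 0, 419, 2 and 963 at day 2, 2 and 3 at day 7, and 3230, 5 and 0 at day 11. Neither day 7 library carried group 6. The leads of groups 5 and 6 were also chosen after their values were seen.

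**Figure D2:**
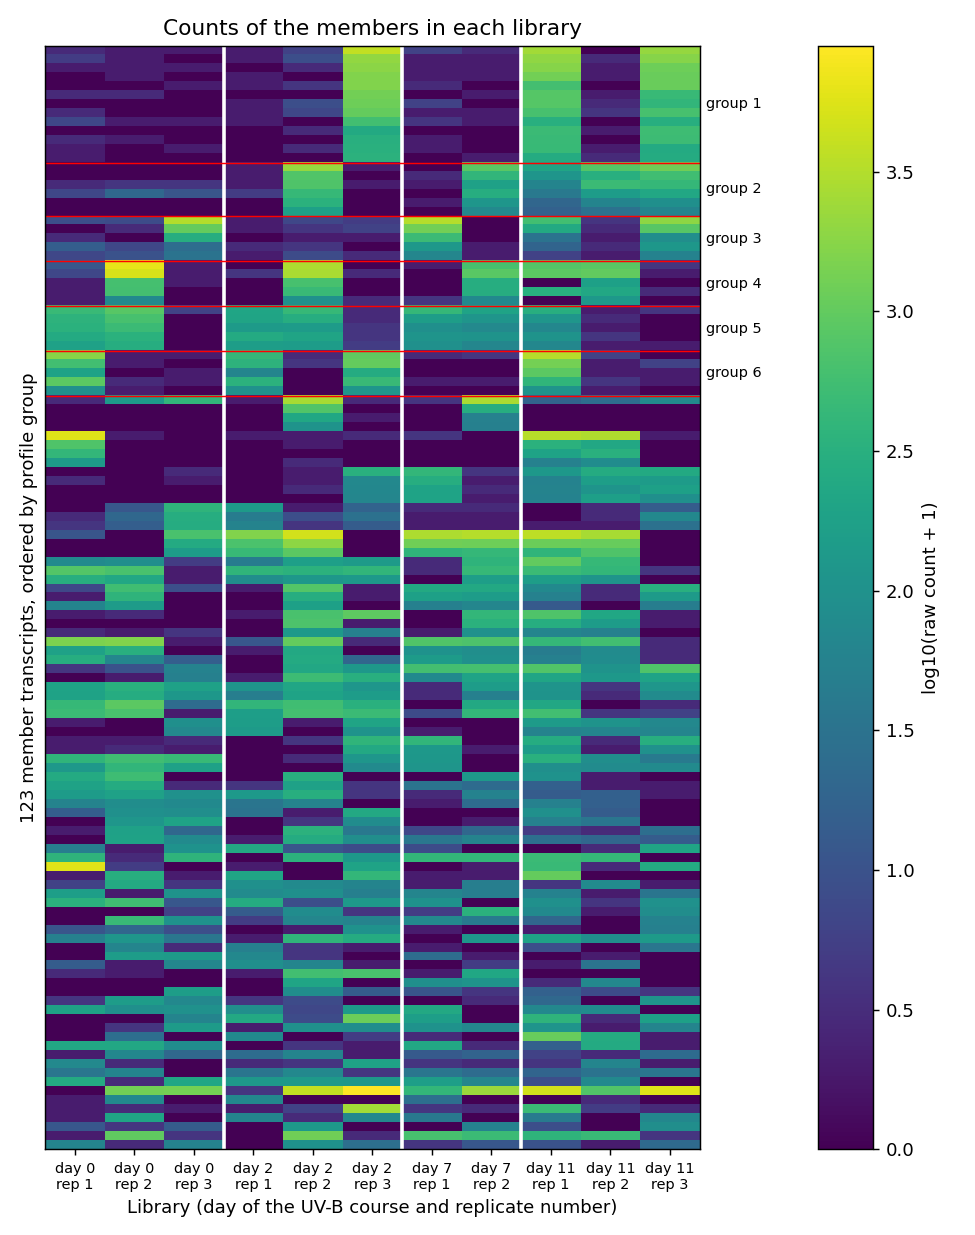
Raw counts of the 123 members (rows, as log10 of the count plus 1) in the 11 libraries (columns, by day and replicate), with white lines between days and red lines under the 6 largest profile groups. Within each day bright and dark cells stand side by side, and the columns of day 2 replicate 2 and day 7 replicate 2 are alike.

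**Figure D3:**
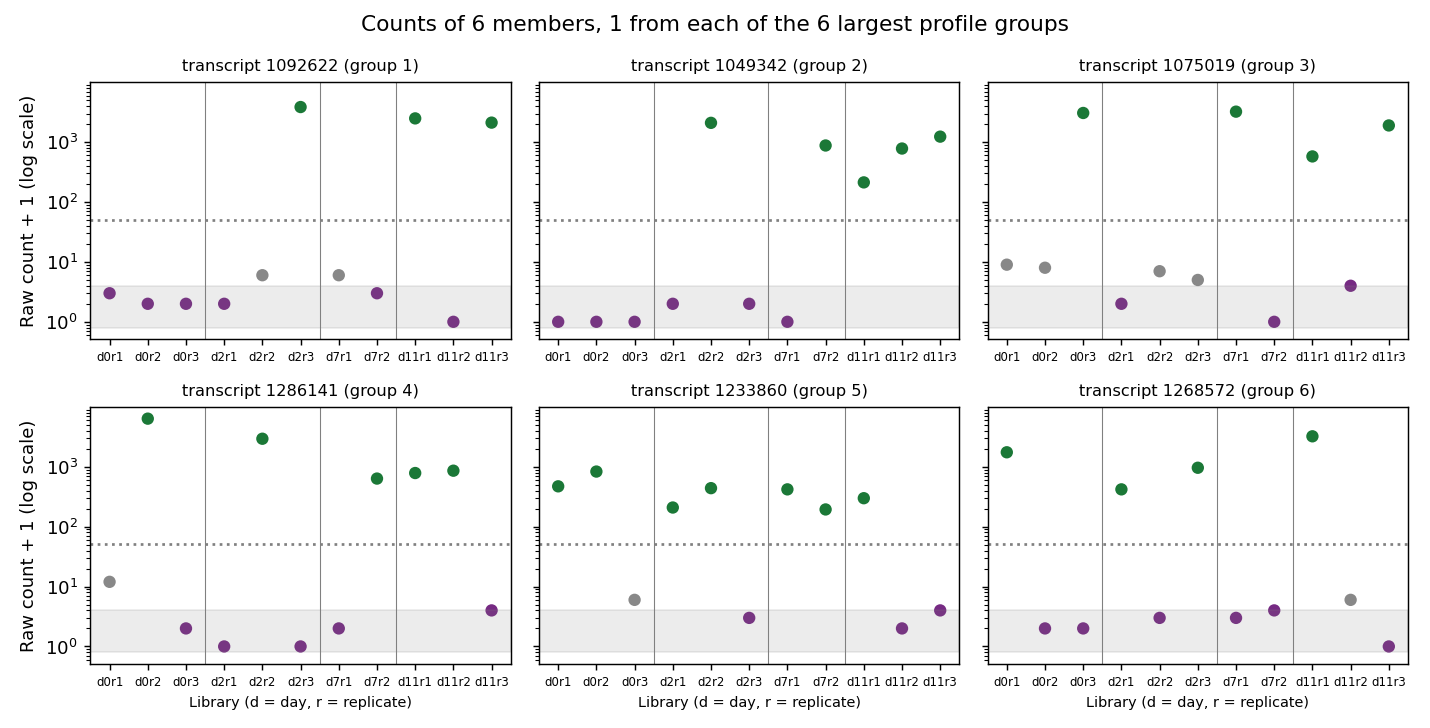
Raw count plus 1 on a log axis for the member with the highest mean CPM in each of the 6 largest profile groups, in the 11 libraries (d for day, r for replicate). Green points have at least 50 counts, purple points at most 3 and grey points lie between. The grey band spans the off range and the dotted line marks 50 counts. On at least 2 days each transcript is on in only some libraries of the day, as the rule requires, but not all 6 do so on every day.

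Some smaller groups were as sharp and others were not. Each member of a group of 3 lay between the limits in 3 or 4 libraries. In a group of 4 led by transcript 293832, all were on in day 0 replicate 1 and day 11 replicates 1 and 2 and off in the other 8 libraries. Transcript 293832 itself had 5768, 1 and 0 counts at day 0, 1, 1 and 2 at day 2, 3 and 0 at day 7, and 3325, 2990 and 1 at day 11. It was chosen after its values were seen. The highest single count of any member was the 8917 of transcript 216392 in day 2 replicate 3. That member was also on in 9 libraries, the most of any, a number that transcript 276139 reached too. It had 0, 1294 and 1322 counts at day 0, 3, 3872 and 8917 at day 2, 416 and 2240 at day 7, and 4860, 760 and 5645 at day 11. It was off in replicate 1 of days 0 and 2 only. Among members on in the fewest libraries, transcript 334566 had the highest mean count. It had 1, 2 and 1 counts at day 0, 1, 5 and 2564 at day 2, 3 and 2 at day 7, and 490, 4 and 2 at day 11.

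Setting day 11 replicate 1 aside, 60 members were on or off in all of the other 10 libraries. They fell into 31 patterns, and 13 patterns were shared by 2 or more members, 42 in all. The commonest, with 8 members, was on in day 2 replicate 3 and day 11 replicate 3 alone. All 8 were also on in day 11 replicate 1.

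Members with close ID numbers tended to share their profile. There were 15 pairs of members whose IDs differed by at most 10, and their median Pearson correlation of log2(CPM + 1) over the 11 libraries was 0.978. In 12 of the 15 it was above 0.8, as it was in 12 without day 11 replicate 1 (median 0.978) and in 11 without the like pair (median 0.975). Over the other 7488 pairs of members the median was 0.0251 and 184 (2.46%) were above 0.8. Among the expressed transcripts that are not members, 7915 pairs had IDs as close, with a median of 0.179 and 459 (5.80%) above 0.8. Transcripts 1268896 and 1268897 are a close pair of members. Their correlation, 0.999, was the highest of the 15, and they were chosen after their values were seen. The first had 1, 1 and 1 counts at day 0, 0, 2 and 1848 at day 2, 1 and 1 at day 7, and 1709, 1 and 1208 at day 11. The second had 0, 1 and 0 counts at day 0, 1, 0 and 1614 at day 2, 1 and 1 at day 7, and 1308, 1 and 1129 at day 11. Both were high in the same 3 libraries. The files give no positions, so closeness in number is a property of the ID only, and reads that near-identical transcripts share could also be split between them.

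The other 3 close pairs had negative correlations, down to -0.889. They lie within 1 run of IDs, which was singled out after its values were seen. Transcript 1259093 had 300, 231 and 1 counts at day 0, 85, 124 and 132 at day 2, 0 and 164 at day 7, and 157, 109 and 0 at day 11. Transcript 1259098 had 0, 2 and 1055 counts at day 0, 1, 3 and 5 at day 2, 1267 and 0 at day 7, and 250, 2 and 835 at day 11. In 10 of the 11 libraries 1 of them was at 50 or more counts and the other at 5 or fewer, and in day 11 replicate 1 both were on.

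Transcript 1259100 followed 1259098, with 2, 0 and 291 counts at day 0, 0, 1 and 1 at day 2, 485 and 0 at day 7, and 31, 1 and 87 at day 11. Transcript 1259089 followed 1259093, with 76, 89 and 4 counts at day 0, 44, 171 and 141 at day 2, 2 and 365 at day 7, and 989, 439 and 0 at day 11. In day 0 replicate 3, day 7 replicate 1 and day 11 replicate 3 the transcripts 1259098 and 1259100 were on and the others at 4 counts or fewer. A search of the whole table took transcripts on in those 3 libraries and off in the other 7, or the reverse, with at most 1 value between the limits and day 11 replicate 1 left out. It returned 4 of 15607 transcripts, which were 1259098 and 1259100 on one side and 1259093 and 1154284 on the other. Transcript 1154284 had 781, 660 and 1 counts at day 0, 381, 341 and 391 at day 2, 2 and 446 at day 7, and 484, 409 and 3 at day 11. All 4 are members, which the terms of the search make certain. The 3 libraries, from 3 different days, were themselves taken from the counts of this run of IDs.

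**Figure D4:**
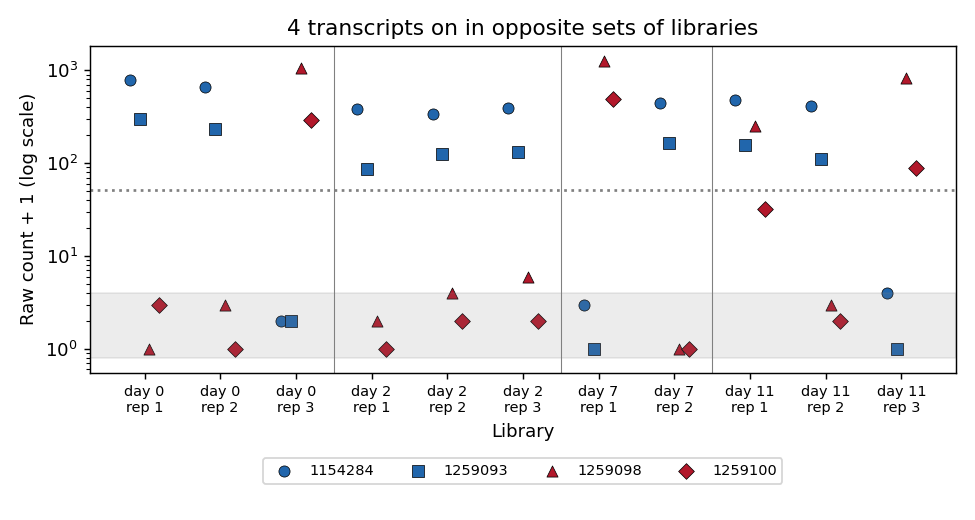
Raw count plus 1 on a log axis for transcripts 1154284 and 1259093 (blue) and 1259098 and 1259100 (red) in the 11 libraries, with the grey band marking counts of 3 or fewer and the dotted line 50 counts. Blue points are high and red points low in 7 libraries, the reverse holds in 3, and in day 11 replicate 1 the counts are 484, 157, 250 and 31.

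Mutual exclusion was counted for all 7503 pairs of members. Leaving out day 11 replicate 1, 31 pairs had exactly 1 member on and the other off in at least 9 of the other 10 libraries. In day 11 replicate 1 itself, both members of 15 of these pairs were on, in 13 pairs a value lay between the limits, and in 3 pairs exactly 1 was on. When each other library was left out in the same way, 6 to 16 pairs were found. Both members were on in the left-out library in 0 to 6 of them, the 6 being for day 2 replicate 1, where 8 further pairs were both off. Pairs share transcripts and are not independent.

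The status of the members was compared between libraries. For each pair of libraries, the share of members with the same status was taken over members on or off in both. In day 2 replicate 2 and day 7 replicate 2, 99 of 100 members had the same status (99.0%). The next highest of the other 54 pairs was 69.4%, between day 0 replicate 1 and day 2 replicate 1, and the lowest was 28.7%, between day 0 replicate 1 and day 11 replicate 3. Over the 45 pairs from different days the median was 52.6%. The rule makes libraries of 1 day differ, so the 10 pairs within a day (30.7% to 68.0%) are set by it. The single member that differed was transcript 1258878, with 86 counts in day 2 replicate 2 and 3 in day 7 replicate 2. With counts scaled to the smallest total, 98 of 98 members had the same status in the 2 libraries, and the next highest pair reached 74.2%. The Pearson correlation of log2(CPM + 1) over the 123 members was 0.958 between the 2 libraries, and 0.534 or less in each other pair.

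The same comparison was made with transcripts that the 2 libraries had no part in choosing. Transcripts that met the criterion on day 0 or day 11 numbered 236, of which 149 were on or off in both day 2 replicate 2 and day 7 replicate 2. Their status was the same in 148 (99.3%). For the other 44 pairs from different days, chosen in the same way from the other 2 days, the share ran from 44.5% to 78.6%.

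**Figure D5:**
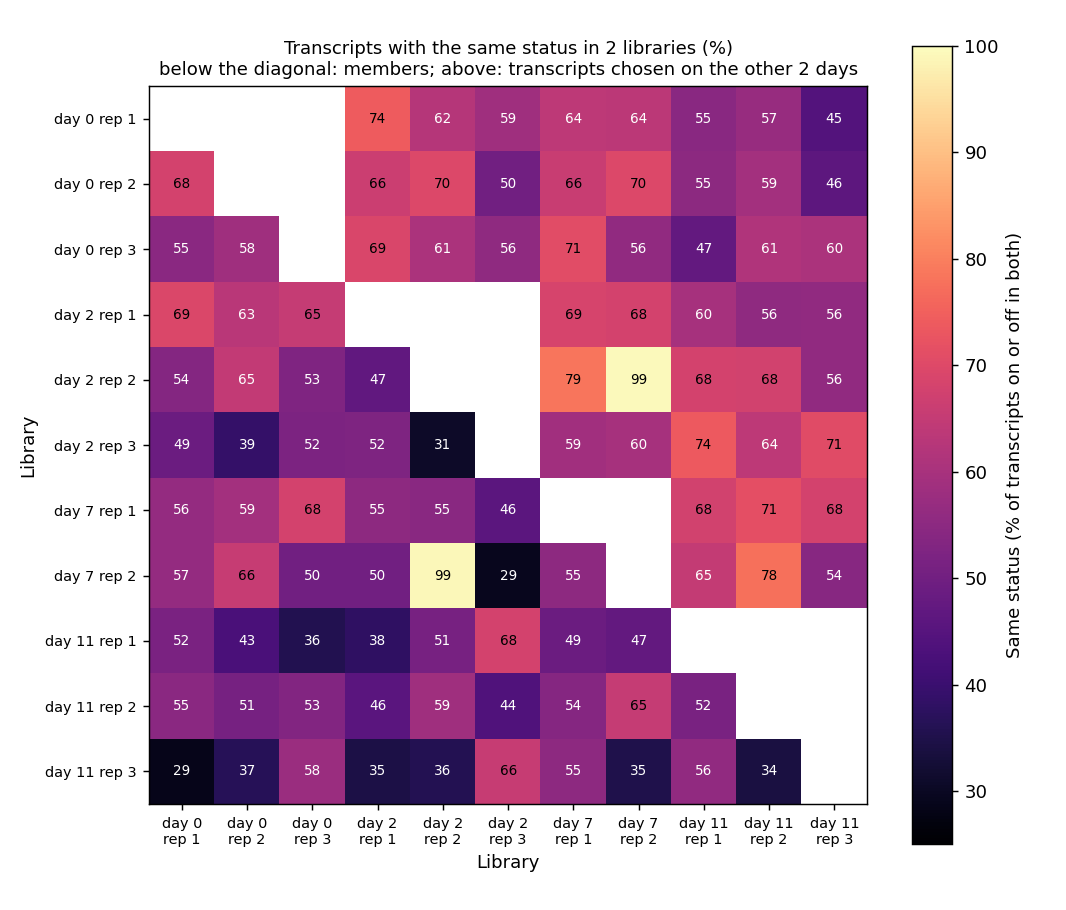
Share of transcripts (colour and number, in percent) with the same status in 2 libraries, among those on or off in both. Below the diagonal are the 123 members, and above it, for pairs from different days, transcripts that met the criterion on at least 1 of the 2 days not in the pair; day 2 replicate 2 and day 7 replicate 2 reach 99 on both sides of it and no other pair exceeds 79.

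The 2 libraries were also compared in other transcripts, where they stood out less. Over expressed transcripts that are not members, their correlation of log2(CPM + 1) was 0.942, the highest of the 6 pairs of a day 2 and a day 7 library (0.888 to 0.942, the next 0.927), and within the range of 0.851 to 0.959 over all pairs from different days. Among the same 6 pairs the share of members with the same status was 55.4% or less in the other 5. Their deviations from the day means over all expressed transcripts correlated at 0.388, the highest of the 15 pairs with the same replicate number. No 2 libraries held identical counts. A chi-square of the mycobiont counts of day 2 replicate 2 and day 7 replicate 2 gave 258 per degree of freedom, so they differed by more than sampling noise and were counted as separate samples. By this measure they were not the closest libraries of these days, at rank 38 from the lowest over all pairs. Day 7 replicate 1 gave 206 with day 2 replicate 3 and 232 with day 2 replicate 2. In the green alga, transcripts that met the criterion on day 0 or day 11 had the same status in 49 of 51 cases (96.1%). That did not stand out, as another pair of libraries, day 2 replicate 3 and day 11 replicate 3, reached 100% (33 of 33) and the median over pairs from different days was 87.9%.

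Whether a difference between libraries on 1 day was also seen on another day was measured with each day's own libraries. Of the transcripts that met the criterion on 1 day and had a library with at least 50 counts on a second day, 442 of 823 met it on the second day too (53.7%), summed over the 12 ordered pairs of days. The share was lowest from day 0 to day 7, at 27.3% (12 of 44), and highest from day 0 to day 11, at 67.6% (46 of 68). Among all transcripts with a library of at least 50 counts on the day, the criterion was met by 1.45% on day 0, 1.67% on day 2, 0.743% on day 7 and 1.42% on day 11. The comparison is not matched for level, and highly counted transcripts have further to fall. A transcript can enter several of the 12 pairs, so no test was made. With day 2 replicate 2 and day 7 replicate 2 left out, the pooled share was 51.6% over the pairs among days 0, 2 and 11. With all libraries those pairs of days gave 55.8% to 67.6% each. Leaving out day 11 replicate 1 gave a pooled share of 52.4%.

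By day, 31 members were off in every day 0 library, 7 in every day 2 library, 35 in both day 7 libraries and 6 in every day 11 library. Of the 31 that were off throughout day 0, 15 were on in at least 1 library of each irradiated day. The rule itself requires these 31 to be on in a library of at least 2 irradiated days. It admits no transcript that is on at day 0 and off in every irradiated library, so these counts are no measure of a response to UV-B. Members on in every library of the day numbered 8 (day 0), 8 (day 2), 22 (day 7) and 14 (day 11). There were 42 members on in at least 1 library of all 4 days, and 56 off in at least 1 library of all 4 days. Day 7 has 2 libraries, which makes agreement within the day easier to reach, and without day 11 replicate 1 the members off in both other day 11 libraries numbered 18 and those on in both 16. Without day 2 replicate 2, 33 members were off and 20 on in both other day 2 libraries.

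All 123 members passed the expression filter of the test across days. The question here was whether the level of a member also differed with the UV-B course. The rule compared no days with each other, but it is not neutral to the course. A transcript off throughout day 0 can enter through irradiated days alone, while a transcript on only at day 0 cannot enter. The direction of calls and of median changes is therefore not independent of the rule. A wide spread within days also leaves a test between days little precision. The median biological coefficient of variation was 1.72 over the members (0.886 to 2.93) and 0.296 over all 12089 transcripts tested. By edgeR's quasi-likelihood test with Benjamini-Hochberg adjustment over all transcripts, 0 of 123 members were called at day 2 against day 0, where 13.1% of all transcripts were called (8.59% higher and 4.47% lower). At day 7 0 members were called, against 17.5% of all (9.65% higher and 7.86% lower). At day 11 6 members were called, all higher, where 29.0% of all were called and 15.2% were called higher and 13.8% lower. In the test of the 3 irradiated days together 0 members were called, against 27.2% of all, and the smallest adjusted p of a member was 0.0570. At an unadjusted p under 0.05 there were 27 members at day 2, where 30.5% of all transcripts passed, 16 at day 7 (34.2%), 30 at day 11 (41.9%) and 16 over the course (42.7%). DESeq2 gave an adjusted p for 103 members. At day 2 it called 25 members, 19 of them higher, where it called 21.9% of all transcripts and 13.3% higher. At day 7 it called 25, 15 of them higher, where 27.4% of all were called and 14.7% higher. At day 11 it called 28, 25 of them higher, where 35.2% of all were called and 18.7% higher, and over the course 11, against 41.0% of all. The share of the 103 members called was 24.3% at days 2 and 7 and 27.2% at day 11, above that of all transcripts at day 2 and below it at days 7 and 11. The 3 days share their day 0 libraries.

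The median log2 fold change of the members was 0.57 at day 2, 0.04 at day 7 and 0.71 at day 11, beside -0.03, -0.02 and -0.02 over all transcripts tested. With library totals in place of the trimmed mean of M-values (TMM) the member medians were 0.14, -0.13 and 0.31 and those of all transcripts -0.45, -0.35 and -0.47, so the sign at day 7 depends on the scaling. Without day 11 replicate 1 the day 11 median of the members was 0.16 and 0 members were called, where 19.4% of all transcripts were. With day 2 replicate 2 and day 7 replicate 2 left out it was 0.74 at day 11, with 11 called, and 0.06 and -0.58 at days 2 and 7. Leaving out day 0 replicate 2 also brought the day 11 count to 0 (18.9% of all transcripts). It was 2 when day 0 replicate 1, day 0 replicate 3 or day 11 replicate 3 was left out (22.3%, 19.3% and 22.3% of all). It was 10 without day 11 replicate 2, or 8.13% of the members against 21.8% of all. Without day 2 replicate 1 or day 2 replicate 2 it was 18, or 14.6% and 15.0% of the members against 30.9% and 27.6% of all. Without day 2 replicate 3 it was 19, or 15.6% of the members against 27.4% of all. The day 2 count became 1 without day 2 replicate 1 or day 11 replicate 2 (9.81% and 12.6% of all transcripts). The day 7 count became 1 without day 0 replicate 3, day 2 replicate 2 or day 11 replicate 2 (11.0%, 16.0% and 16.7% of all). It was 2 without day 2 replicate 1 (19.6% of all) and 3 without day 2 replicate 3 (16.3% of all). The count over the course was 2 without day 0 replicate 1 or day 2 replicate 2 (19.2% and 24.3% of all). It was 3 without day 2 replicate 1 (25.1% of all), and 1 without day 11 replicate 2 or 3 (22.5% and 23.1% of all). Without day 2 replicate 3 it was 16, or 13.1% of the members against 21.7% of all. Day 7 and course counts without 1 of the day 7 libraries are not listed here, as day 7 then holds 1 library.

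Of the 6 members called at day 11, transcript 1154522 had the smallest adjusted p. It had 3, 9 and 56 counts at day 0, 0, 229 and 126 at day 2, 585 and 600 at day 7, and 756, 107 and 721 at day 11. Every day 7 and day 11 library lay above all day 0 libraries, while the day 2 libraries lay on both sides. By edgeR the day 11 level was 4.89 higher on the log2 scale, with SE 1.54 and an adjusted p of 0.0418. The day 7 difference of 5.07 had SE 1.60 and an edgeR adjusted p of 0.0580, and that of day 2, 2.17 with SE 1.41, had 0.332. Under 10 of 19 other settings its day 11 adjusted p was above 0.05, and over the 19, edgeR or DESeq2 adjusted p spanned 0.00884 to 0.120. Leaving out day 0 replicate 2 gave the 0.120, and day 0 replicate 1 gave 0.0999. The loss also came with library totals, with no filter, and when day 2 replicate 3, either day 7 library, day 11 replicate 1 or day 11 replicate 3, or the like pair of day 2 and day 7, was left out, at edgeR adjusted p from 0.0518 to 0.0882. It was named after its values were seen. The calls of the other 5 members were each lost under 8 to 10 of the settings run.

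Applied to the photobiont table, the rule found 19 of 12582 transcripts (0.151%). The photobiont received fewer counts, 938418 to 2677845 per library. With mycobiont counts scaled down, library by library, to the alga's totals, 57 of 15607 mycobiont transcripts (0.365%) met the rule. Among transcripts with a library of at least 50 counts on 2 or more days, the share was 1.23% in the mycobiont at its own depth and 0.239% in the photobiont. The difference between the partners was not tested, because transcripts are not replicates.

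Shares of reads were compared for the libraries that stood apart. Reads kept after trimming that mapped to the mycobiont genome made up 75.8% in day 11 replicate 1, within the 71.1% to 81.0% of all libraries. Unmapped reads made up 14.7% in it, and 9.29% to 16.3% over all libraries, the highest in day 11 replicate 2 and the lowest in day 2 replicate 2. Day 2 replicate 2 also had the lowest share of reads mapped to the cyanobacterium, 0.0159% of kept reads, with 0.111% in day 7 replicate 2, 0.0507% in day 11 replicate 1 and up to 0.223% elsewhere. Their part in the results was not tested. In day 11 replicate 1 the median level of the members on was 0.25 lower, on the log2 CPM scale, than in the other libraries where the same member was on. In day 11 replicates 2 and 3 it was 0.17 and 0.28 lower. Among transcripts that met the criterion on another day, compared with on libraries of other days, it was 0.44 lower in day 11 replicate 1. The same value was 0.22 and 0.32 lower in day 11 replicates 2 and 3, and 0.37 lower in day 2 replicate 1.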

How the data were processed

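Per the file headers, the authors deposited raw counts per transcript ID and library, in separate tables for the fungus and the alga, and a table of read counts per library before and after trimming and per partner genome. Values are whole numbers, and each replicate has its own column. The labels' protocols describe directional libraries of polyadenylated RNA with 50 bp single-end reads. Trimmomatic 0.39, FastQC 0.11.8, HTSeq 0.5.4, HISAT2 and edgeR appear in the submitters' processing notes. Not stated there or in the labels are the builds, the gene models and the strand setting of the counting, so overlapping or near-identical transcripts are uncertain.

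The membership rule, the profile groups and the comparisons were chosen with earlier results of these data known. On means at least 50 raw counts and off at most 3. Transcripts were named by a rule: up to 3 members meeting the criterion on the most days, ties by highest count; in each of the 4 largest profile groups the member with the highest mean CPM; the 2 members with the highest single counts; the members on in the smallest and the largest share of libraries; and members called over the course, of which there were none. Other names were chosen after their values were seen. Statuses and correlations were computed in Python 3.11.15 with NumPy 2.4.6, pandas 2.3.3 and SciPy 1.17.1, with correlations on log2(CPM + 1). Expressed non-members had at least 1 CPM in at least 3 libraries.

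Days were compared in R 4.3.3 with edgeR 4.0.16 (quasi-likelihood F test, robust, TMM, default filter by group), fitted to all 11 libraries and adjusted over all 12089 transcripts. A transcript was called at an adjusted p under 0.05. The standard error is the absolute log2 fold change divided by the square root of F. DESeq2 1.42.0, other scalings and filters, a replicate block, fits to 2 days and left-out libraries were alternatives.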

Additional observations from a re-analysis of the deposited data

How the results depend on the processing

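The number of members follows its limits. Against 123, there were 50 with absence set at 0 counts and 193 at 10 or fewer, 233 with presence at 20 counts and 78 at 100, 40 and 6 when 3 or 4 days had to meet the criterion, and 74 with day 2 replicate 2 and day 7 replicate 2 both left out, a setting chosen after the data had been seen. It was 93 to 115 when 1 library was left out, and 116 with counts scaled to the smallest total. The share of differences found again on a second day, 53.7%, was 56.0% with scaled counts and 52.4% without day 11 replicate 1. Leaving out day 2 replicate 2 and day 7 replicate 2 gave 51.6%, over days 0, 2 and 11 only. With all libraries the shares between those days were 55.8% to 67.6%, each above that 51.6%. The members called, 0, 0 and 6 at days 2, 7 and 11 and 0 over the course, became 25, 25, 28 and 11 with DESeq2, which called 21.9%, 27.4%, 35.2% and 41.0% of all transcripts. With fits to the 2 days alone, where at day 11 80 members passed the filter, they were 1, 1 and 13 (9.40%, 14.6% and 28.5% of all), and without a filter 0, 0, 0 and 0. With that pair left out they were 0, 1, 11 and 7 (8.74%, 3.79%, 24.3% and 18.8% of all), with 1 library left at day 7 that is assumed to vary like the other days. Leaving out 1 library gave 0 to 1, 0 to 3, 0 to 19 and 0 to 16, where 4.98% to 12.6%, 4.68% to 19.6%, 18.9% to 30.9% and 16.0% to 25.1% of all transcripts were called. The cause of these shifts was not tested. The labels give the days shared replicate numbers. Deviations from the day means correlated above 0.1 in 4 of 15 same-numbered pairs over all expressed transcripts (-0.0974 to 0.388), and 5 of 11 libraries correlated best with a library of their own number, so the numbers were not taken to pair the libraries. Over the members the same correlations were 0.00226 to 0.527, above 0.1 in 11 of 15 pairs and in 6 of 6 pairs of libraries numbered 2. With the replicate block 1, 1, 15 and 3 members were called, where 8.73%, 10.9%, 23.1% and 18.6% of all transcripts were. Low depth limits the off status, since a count of 0 allows 3 counts.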
